A study of Mus musculus with 24 samples.

Results

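The cytosolic ribosome is the machine that reads mRNA into protein. Its large subunit holds the site where peptide bonds are made, and its small subunit holds the channel in which the mRNA is decoded. Cells make the proteins of both subunits in nearly equal numbers, and the mRNAs of most of them share a short pyrimidine tract at their 5′ end through which growth signals, read by the kinase mTOR, set their translation. Microglia, the resident macrophages of the retina and brain, change shape and gene expression when neurons are injured. The genes described here were chosen by name: mouse symbols of the form Rpl or Rps with a number, and Rplp0, Rplp1, Rplp2 and Rpsa, without names that mark pseudogenes. The rule found 86 genes among 47729 gene IDs, 53 of the large and 33 of the small subunit. They lie on 19 chromosomes, with 15 on chromosome 7. The rule leaves out Rps3a1, Fau, Rack1 and another gene, which also encode parts of the ribosome, and 3 of its members (Rpl6l, Rps12l1 and Rps4l) are annotated as pseudogenes.

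Cells that carried CD11b and FCRLS on their surface and lacked Ly6c, which marks microglia, were collected from each retina by sorting (100 to 600 cells, per the labels) and sequenced as 1 library. The inbred DBA/2J strain develops glaucoma with age, and its genotype is given as Gpnmb-/- Tyrp1b-/-. The control strain DBA/2J Gpnmb+ is given as Gpnmb+/+ Tyrp1b-/-, so the Tyrp1b mutation is shared by every group. No treatment was given. The 24 retinas came from 15 animals, 5 per group: 10 retinas of 12-month DBA/2J, 9 of 12-month Gpnmb+ and 5 of 6-month DBA/2J, which are labelled as early disease. The 12-month DBA/2J retinas carry a disease grade: 3 were mild (from 2 animals), 4 moderate (from 3) and 3 severe (from 2). The 6-month and Gpnmb+ groups differ in both age and genotype, and no 6-month Gpnmb+ mice were analysed here. Both eyes of an animal were added up before testing, so n counts animals. In the fit by grade, the eyes were added up within each animal and grade, which gives 17 sums. DBA/2J animals 1 and 5 have eyes of different grades and enter that fit with 2 sums each, taken as independent.

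The total count per retina was 977886 to 20081114, and 3469 to 16716 genes had a count. The 5 retinas with fewer than 10000 genes were all from Gpnmb+ animals 1, 2 and 3. The microglia markers P2ry12, Tmem119, Cx3cr1 and C1qa were counted in every retina. Gpnmb itself had counts in 1 of the 9 Gpnmb+ retinas (30.9 CPM, counts scaled to 1e+06 per library) and in none of the 15 DBA/2J retinas, so at this depth it checks the genotype of a single retina. In 2 retinas the share of counts from ribosomal protein genes stood apart: 12-month DBA/2J animal 1 OD (right eye), graded moderate, at 3.96%, and animal 4 OS (left eye), graded mild, at 4.30%. They had the lowest totals of their group (4983389 and 1706775), and the median of each comparison that includes them is also given without them.

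The sequence around the start of transcription is shown first, because the pyrimidine tract is the feature these genes are best known to share. Each window runs from 10 bases before to 20 bases after the RefSeq annotated start, 5′ to 3′ on the transcribed strand, and capitals mark the longest run of C and T where it has at least 8 bases. The first 8 are genes whose values are discussed below, with a run, and the last 2 are paralogs without one.
Rpl15: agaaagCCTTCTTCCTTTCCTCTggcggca
Rpl18: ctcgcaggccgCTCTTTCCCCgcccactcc
Rplp2: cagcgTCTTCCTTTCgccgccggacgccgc
Rpl22l1: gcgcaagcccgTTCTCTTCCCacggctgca
Rps6: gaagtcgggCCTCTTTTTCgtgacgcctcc
Rps10: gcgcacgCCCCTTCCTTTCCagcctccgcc
Rps18: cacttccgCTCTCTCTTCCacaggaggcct
Rps26: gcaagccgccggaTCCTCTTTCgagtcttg
Rpl36al: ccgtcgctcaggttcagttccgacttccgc
Rps27l: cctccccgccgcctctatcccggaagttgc
On GRCm38.p6 the windows lie at chr14:18270967-18270996 (Rpl15, minus strand), chr7:45718061-45718090 (Rpl18, plus), chr7:141447641-141447670 (Rplp2, plus), chr3:28805498-28805527 (Rpl22l1, plus), chr4:86857348-86857377 (Rps6, minus), chr17:27635225-27635254 (Rps10, minus), chr17:33955646-33955675 (Rps18, minus), chr10:128626487-128626516 (Rps26, minus), chr12:69184048-69184077 (Rpl36al, minus) and chr9:66946076-66946105 (Rps27l, plus). They span the upstream flank and the first transcribed bases.

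The RefSeq table held a promoter for 63 of the 86 genes, with 75 starts in all. A run of at least 8 pyrimidines lay in the window of 24 of these 75 starts (32.0%), against 11.2% of all 32851 starts in the table. The share was 31.9% for the large and 32.1% for the small subunit. The run was 17 bases long in Rpl15, 13 in Rps10 and 11 in Rps18. The letters CCGGAAG, searched on both strands of the 300-base promoter, were present at 34.7% of the members' starts and 8.9% of all starts. No match says only that these letters are not in this window.

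On GRCm38, in the GENCODE annotation, some of the protein-coding genes described in the comparisons below lie at chr15:76904078-76906314 (Rpl8), chr15:80077791-80091868 (Rpl3), chr5:107900502-107909005 (Rpl5) and chr10:128624534-128626747 (Rps26).

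Levels between genes are given as deposited TPM, which are scaled by transcript length. Rplp1, a protein of the stalk that recruits elongation factors, had the highest mean level over the 24 retinas at 2607 TPM (lowest 1353, median 2549, highest 4237). Rps29 followed at 2144 TPM and Rps4x, an X-linked small subunit gene, at 1753 TPM. Rps27 stood at 1709 TPM and Rpl41, which encodes one of the smallest known proteins, at 1559 TPM. The other members of the stalk were lower, Rplp2 at 1073 and Rplp0 at 465.9 TPM. Rpsa, at the surface of the small subunit, had 256 TPM and Rps2, at the mRNA entry channel, 197 TPM.

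The lowest detected genes were Rpl10l (0.00458 TPM, 1 retina with a count), the pseudogene Rpl6l (3.65 TPM) and the pseudogene Rps4l (33.5 TPM). Rpl3l and Rpl39l had no count in any retina. Rpl3l is known as the muscle form of Rpl3, and Rpl10l and Rpl39l are known from testis. Their parent genes were far above them, with Rpl3 at 714 TPM, Rpl10 at 1535 TPM and Rpl39 at 152 TPM. Of the other paralogs, Rpl36al had 408 TPM beside 377 TPM for Rpl36a, and Rpl22l1 had 219 TPM beside 407 TPM for Rpl22. Rpl7l1 had 39.8 TPM and Rps27l 115 TPM. In all, 64 of the 86 genes had counts in every retina. Short reads shared between these genes, their paralogs and 274 features with pseudogene names were divided by the authors' estimation, so values of paralogs and pseudogenes are uncertain.

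**Figure D1:**
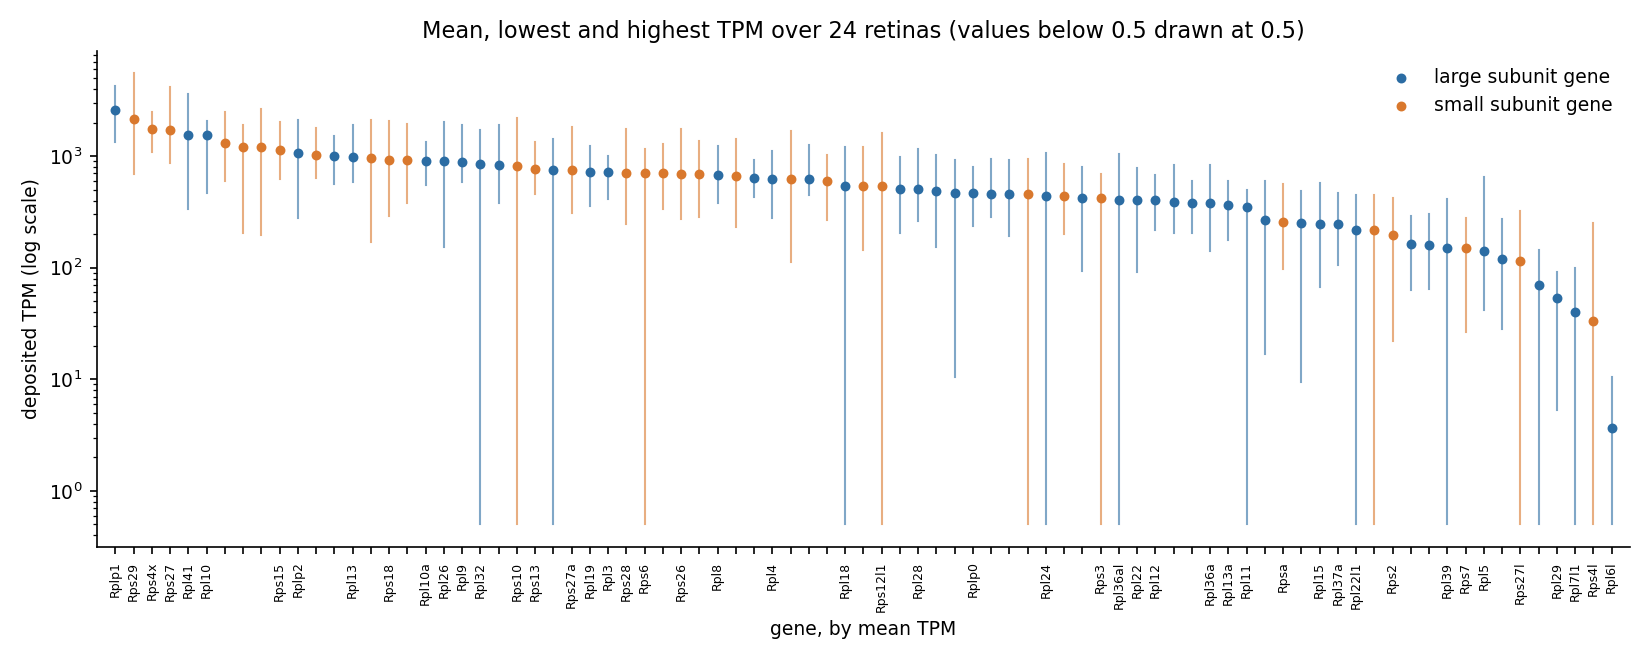
Deposited TPM (log axis) of the 83 ribosomal protein genes with a mean above 1 TPM, ordered by mean. Names are given for genes named in the text. Points are means over 24 retinas and lines run from the lowest to the highest retina. Large and small subunit genes are mixed along the order, and the line of a gene reaches the bottom where at least 1 retina had no count.

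Large and small subunit genes were compared first as sums. The large subunit genes summed to 12573 CPM ± 2515 (SD, n = 5) in 12-month DBA/2J, 9743 ± 2580 in Gpnmb+ and 8305 ± 611 in 6-month DBA/2J. The small subunit genes summed to 9328 ± 2072, 6846 ± 2494 and 5852 ± 646 CPM. By animal, the large subunit sum was 14596, 13379, 9375, 15024 and 10493 CPM in 12-month DBA/2J animals 1 to 5. It was 13569, 6834, 9162, 8323 and 10826 CPM in Gpnmb+ animals 1 to 5. It was 7456, 8757, 8095, 9021 and 8196 CPM in 6-month DBA/2J animals 1 to 5. Every 12-month DBA/2J animal was therefore above every 6-month animal, while the Gpnmb+ animals spread over both, with animal 1 high and animal 2 low. The small subunit sum was 6784 to 11335 CPM in 12-month and 5260 to 6883 CPM in 6-month DBA/2J, and these groups overlapped because 12-month animal 3 was below 6-month animal 4.

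The ratio of the large to the small subunit sum was 1.35 ± 0.0422 in 12-month DBA/2J, 1.47 ± 0.193 in Gpnmb+ and 1.43 ± 0.0906 in 6-month DBA/2J (n = 5 each), and the groups overlapped. The highest animal was Gpnmb+ animal 2 at 1.77, which had the lowest total of all animals (4715540 counts). By grade it was 1.34 ± 0.0751 in moderate (n = 3), and 1.33 and 1.36 in the mild and 1.35 and 1.38 in the severe sums. On deposited TPM the mean ratio was lower, 1.07 in 12-month DBA/2J, 1.16 in Gpnmb+ and 1.14 in 6-month DBA/2J. The 2 retinas that stood apart had ratios of 1.26 and 1.17, at the low end of all retinas.

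**Figure D2:**
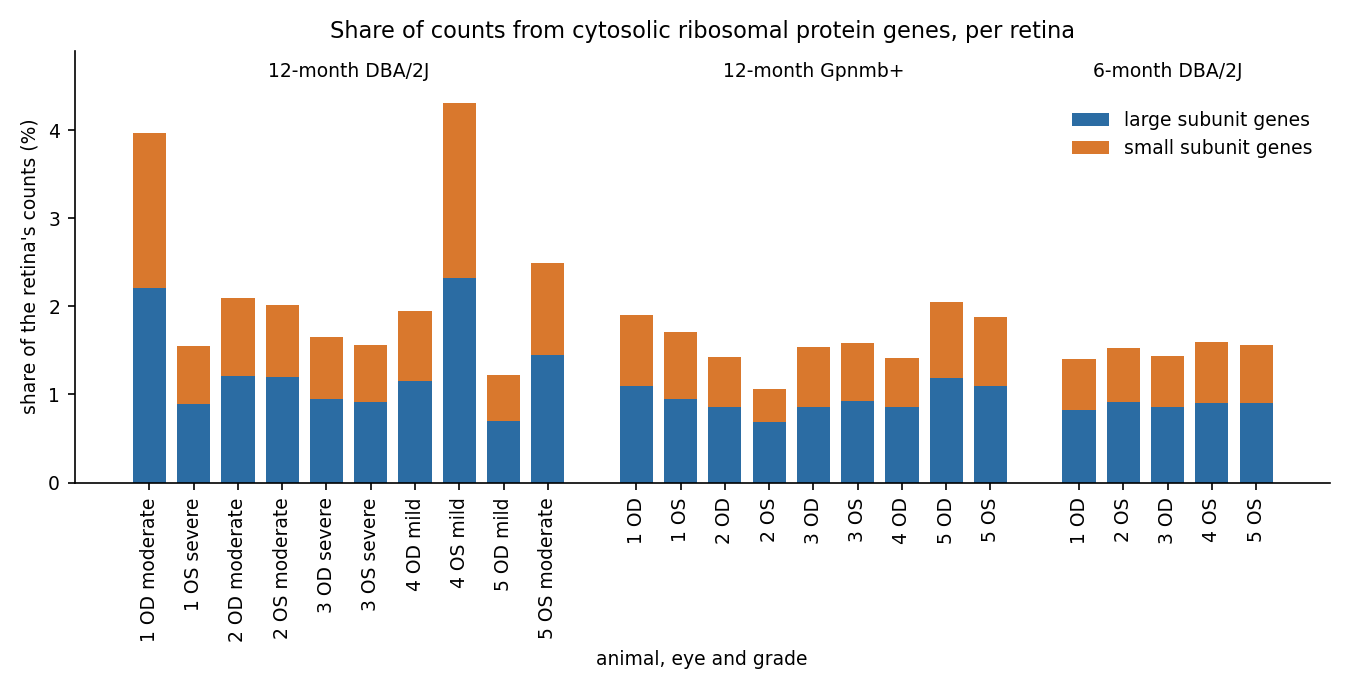
Share of each retina's counts (percent) from large subunit genes (blue) and small subunit genes (orange), by group, animal, eye and grade. Animal 1 OD (3.96%) and animal 4 OS (4.30%) of 12-month DBA/2J stand above the other 22 bars, which lie between 1.06% and 2.49%.

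The first comparison asked whether glaucoma-prone 12-month DBA/2J differ from Gpnmb+ mice of the same age. Most ribosomal protein genes of both subunits had a higher mean in DBA/2J, and none passed the adjusted test. Rpl8, next to the peptidyl transferase centre, and Rps10, of the small subunit head, were among those with the smallest p-values. Of 83 genes that passed the filter on low counts (50 large, 33 small, the others being Rpl3l, Rpl10l and Rpl39l), 81 had a positive log2 fold change, against 52.5% of the 12977 genes tested. Their median was 0.42, with 0.38 for the large and 0.45 for the small subunit, and 0.05 over all genes tested. The log2 sums of the 2 subunits had a Pearson r of 0.98 over the 15 animals. Counts of ribosomal protein genes, here and below, are therefore not counts of independent observations. The median SE was 0.305 for these genes and 1.03 over all genes tested, so the shares beside them come from less precise values. With edgeR's quasi-likelihood method and Benjamini-Hochberg adjustment over 12977 genes, 0 were called at 0.05 (676 at an unadjusted p under 0.05, and 222 adjusted with DESeq2). The smallest adjusted p of a ribosomal protein gene was 0.574. At an unadjusted p under 0.05, 12 of the 83 were higher (6 large, 6 small), beside 2.76% of all genes tested, and 0 were lower, beside 2.45%.

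Rpl8 had 591, 486, 275, 408 and 359 CPM in 12-month DBA/2J animals 1 to 5 and 277, 212, 203, 219 and 373 CPM in Gpnmb+ animals 1 to 5. Gpnmb+ animals 1 and 5 lay within the DBA/2J range, so the groups overlapped. Its log2 fold change was 0.72 ± 0.24 (SE, edgeR, p = 0.00702, adjusted p = 0.574). Rps10 had 346.5, 249, 205, 379 and 229 CPM in DBA/2J and 197, 89.1, 188, 160.4 and 209 CPM in Gpnmb+, an overlap at DBA/2J animal 3. Its log2 fold change was 0.74 ± 0.27 (adjusted p = 0.662 by edgeR). The other large subunit genes with the smallest p were Rpl15 (0.82), Rpl24 (0.84) and Rpl19 (0.59). The latter pair encode proteins that bridge to the small subunit. No ribosomal protein gene had groups that did not overlap, beside 0.832% of all genes higher and 0.285% lower without overlap.

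The 2 genes of opposite sign were Rpl5, at -0.23 ± 0.26, and Rps2, at -0.15 ± 0.40. Rpl5 carries the 5S RNA into the large subunit. Of the stalk genes, Rplp0 was at 0.44 ± 0.21 (p = 0.0473, adjusted p = 0.952), Rplp1 at 0.23 ± 0.25 and Rplp2 at 0.39 ± 0.37. Rps6, the target of the S6 kinases downstream of mTOR, was at 0.08 ± 0.20. Rpl3 was at 0.30 ± 0.16, Rpl10 at 0.24 ± 0.23, Rpl41 at 0.52 ± 0.28, Rpsa at 0.47 ± 0.30, Rps4x at 0.21 ± 0.22 and Rps27a, whose product is made as a fusion with ubiquitin, at 0.52 ± 0.29. Without the 2 retinas that stood apart, the median was 0.17 and 2 genes were higher at p under 0.05. Leaving out 1 animal gave 38 without Gpnmb+ animal 1, 20 without DBA/2J animal 3, 7 without Gpnmb+ animal 2 or 4, and 6, 5 and 4 without DBA/2J animals 2, 1 and 4. In a fit of single retinas with a random animal effect, the median of 0.31 was below the 0.59 of all genes.

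The second comparison set 12-month against 6-month DBA/2J, the same strain and genotype at the late and the early age. Ribosomal protein genes of both subunits had higher levels at 12 months, with a median log2 fold change of 0.64 against 0.01 over all genes tested, and 81 of 83 were positive beside 50.6%. It was 0.63 for the large and 0.65 for the small subunit. Rpl3, near the peptidyl transferase centre, and Rps26, at the mRNA exit channel, had the smallest p-values of their subunits. At an unadjusted p under 0.05, 42 of 83 were higher (21 of 50 large and 21 of 33 small), beside 2.1% of the 12977 genes tested, and 0 were lower, beside 1.55%. In 22 genes (12 large, 10 small) every 12-month animal was above every 6-month animal, beside 1.43% of all genes, and 0 were lower without overlap beside 1.02%. The adjusted test again gave 0 of 12977 genes (474 at an unadjusted p under 0.05, and 148 adjusted with DESeq2), and the smallest adjusted p among the ribosomal protein genes was 0.556 by edgeR.

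Rpl3 had 888, 736, 668, 866 and 620.0 CPM in 12-month animals 1 to 5 and 506, 472, 425, 553 and 507 CPM in 6-month animals 1 to 5. The groups did not overlap, and the log2 fold change was 0.62 ± 0.16 (p = 0.00141, adjusted p = 0.556 by edgeR). Rps26 had 139, 147, 104, 169 and 119 CPM at 12 months and 53.9, 65.5, 58.6, 96.0 and 72.4 CPM at 6 months, again without overlap, at 0.97 ± 0.28 (adjusted p = 0.712). Other genes among those with the smallest p were Rpl41 (0.93) and Rplp0 (0.68) in the large and Rps28 (1.23) and Rps18 (0.83) in the small subunit. With DESeq2, an alternative test, 3 ribosomal protein genes passed an adjusted p of 0.05: Rpl28 (adjusted p = 0.00921), Rps26 (0.0143) and Rpl3 (0.0294). Rpl28 is named because of that call.

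Other genes gave values in the same range. Rpsa was at 0.78 ± 0.30, Rps27a at 0.81 ± 0.29, Rps4x at 0.55 ± 0.22, Rps6 at 0.45 ± 0.20, Rpl8 at 0.63 ± 0.24, Rplp1 at 0.48 ± 0.25, Rplp2 at 0.67 ± 0.37 and Rpl10 at 0.30 ± 0.23. The 2 genes of opposite sign were Rpl7l1, at -0.24 ± 0.81, and Rps2, at -0.17 ± 0.40. Without the 2 retinas that stood apart the median was 0.44, and 14 genes were higher at p under 0.05. Without DBA/2J animal 1 the number was 24, without animal 4 it was 25, and without 6-month animal 3 it was 27.

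The fold changes were also set out by the pyrimidine run at the annotated start, as a description. Between 12 and 6 months the median was 0.64 in the 24 genes with a run and 0.63 in 36 tested genes without one. Against Gpnmb+ the medians were 0.43 and 0.35, and for moderate retinas against Gpnmb+ they were 0.97 and 0.91.

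**Figure D3:**
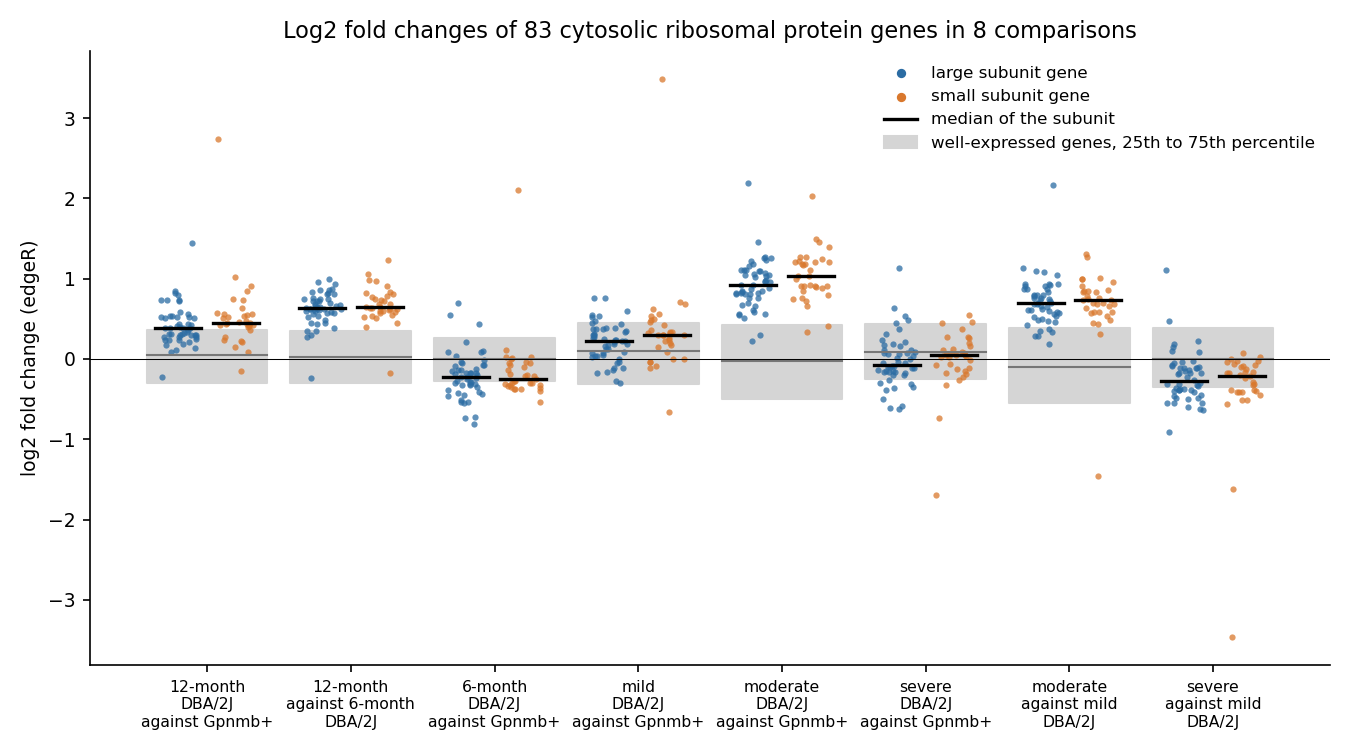
Log2 fold changes (edgeR) of 83 ribosomal protein genes in 8 comparisons, with large subunit genes in blue and small subunit genes in orange. Black bars are the medians of each subunit, and grey boxes span the 25th to 75th percentile of genes whose mean log2 CPM was 6 or more. The medians of both subunits lie above the grey box in the 12-month against 6-month comparison (0.63 and 0.65) and in moderate against Gpnmb+ (0.92 and 1.03). They also lie above it in moderate against mild (0.70 and 0.74). In 12-month DBA/2J against Gpnmb+ they lie just above it (0.38 and 0.45, box top 0.37).

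The 6-month DBA/2J were also set against 12-month Gpnmb+, which differ in age and in Gpnmb. Here most ribosomal protein genes had lower means in the 6-month mice, with a median log2 fold change of -0.23, against 0.03 over all genes tested, and 13 of 83 were positive beside 51.3% of all genes. The median was -0.22 for the large and -0.24 for the small subunit. At an unadjusted p under 0.05, 2 genes were lower, Rpl5 and Rpl10a, which is 2.41% of the 83 beside 1.57% of all genes, and 0 were higher beside 2.2%. The adjusted test gave 0 genes (489 at an unadjusted p under 0.05, and 175 adjusted with DESeq2). Rpl5 had 88.8, 82.0, 68.9, 77.3 and 90.7 CPM in 6-month animals 1 to 5 and 129, 208, 143, 125 and 110.4 CPM in Gpnmb+ animals 1 to 5. The groups did not overlap, and the log2 fold change was -0.81 ± 0.26 (p = 0.00614, adjusted p = 0.822 by edgeR, adjusted p = 0.0321 by DESeq2). Rpl10a, of the flexible L1 stalk, was at -0.44 ± 0.19, Rpl13a at -0.52 ± 0.25 and Rpl3 at -0.32 ± 0.16. Rpl3 and Rpl5 were the 2 genes without overlap, beside 0.239% of all genes lower and 0.878% higher without overlap. In the small subunit the smallest p belonged to Rps26 (-0.54 ± 0.28), Rps6 (-0.37 ± 0.20), Rps4l (2.10 ± 1.26) and Rps13 (-0.35 ± 0.22). Of the 13 genes of opposite sign, the largest beside Rps4l were Rpl6l (0.70), Rpl7l1 (0.54), Rpl29 (0.44), Rpl18 (0.21) and Rps10 (0.11). Leaving out Gpnmb+ animal 1 moved the median to -0.05, and leaving out Gpnmb+ animal 2 moved it to -0.34. Without Gpnmb+ animal 2, the number lower was 10, without animal 4 it was 5, and without Gpnmb+ animal 5 or 6-month animal 1 or 5 it was 1. The comparisons of 12-month DBA/2J share the 12-month DBA/2J animals, and those against Gpnmb+ share the Gpnmb+ animals, so none of these results is independent of the others.

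**Figure D4:**
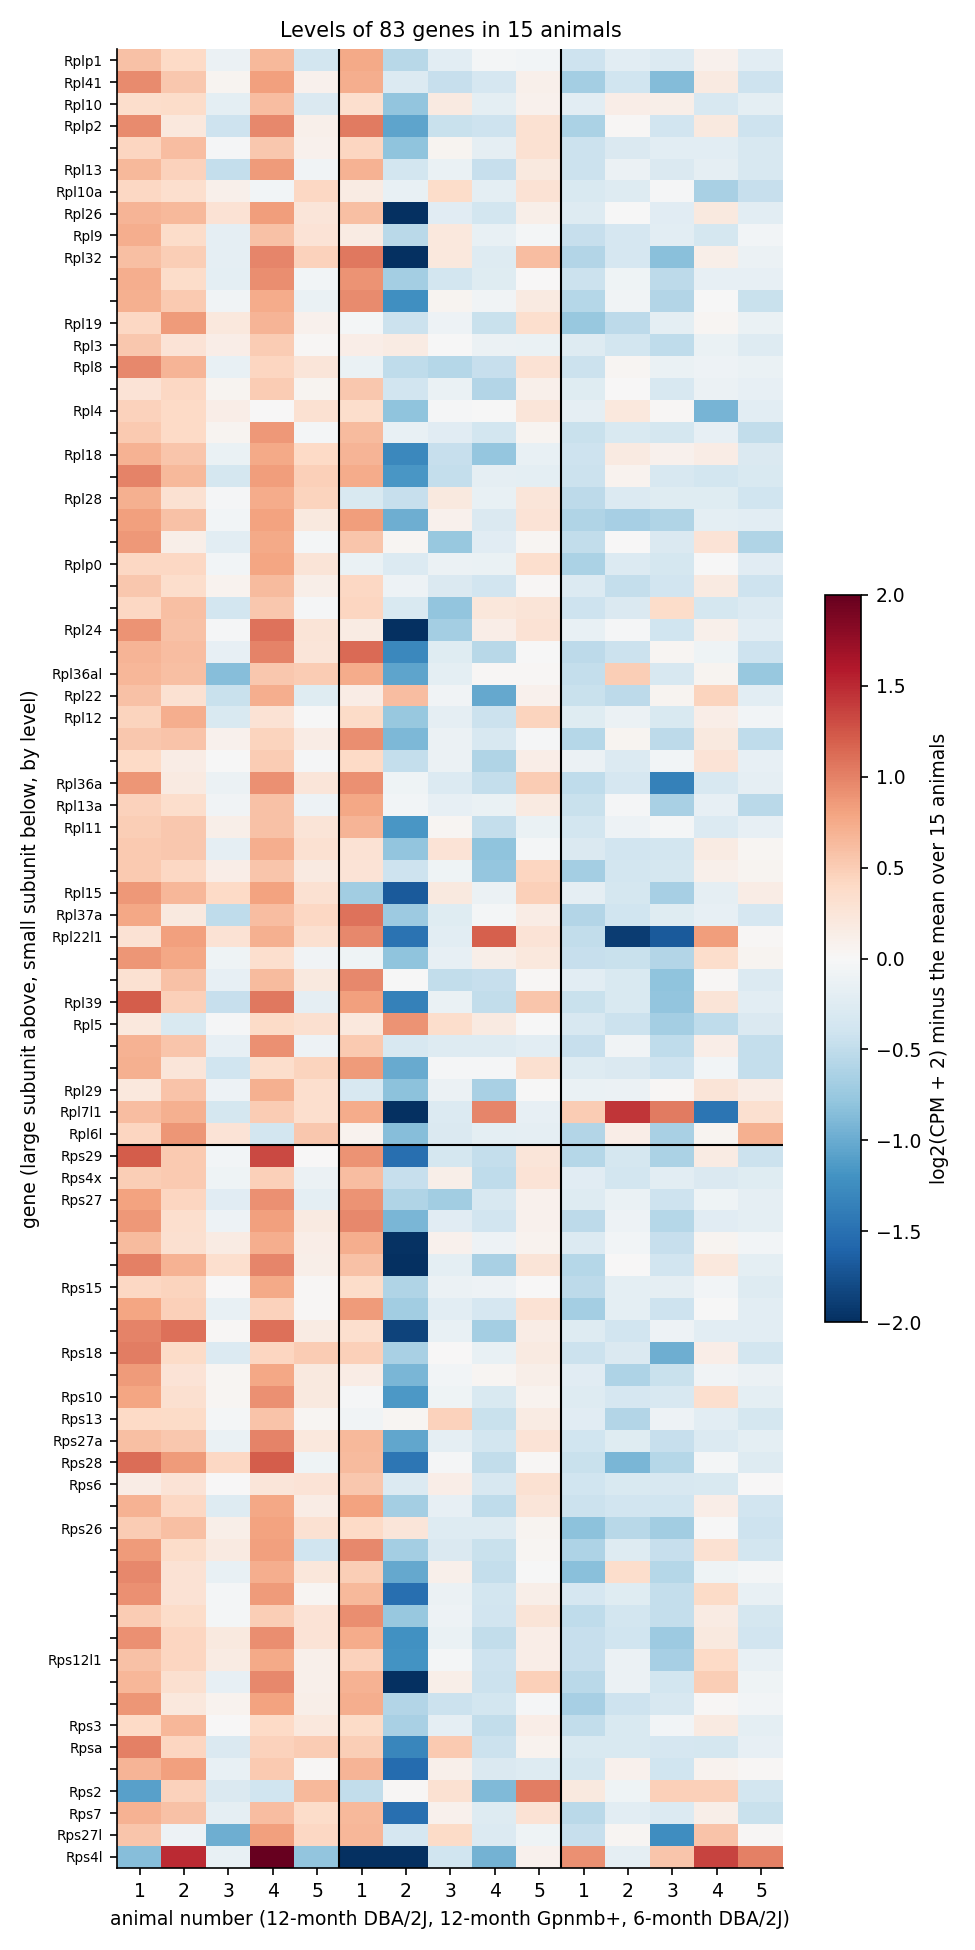
Log2(CPM + 2) of 83 genes in 15 animals, each gene relative to its mean over the 15 animals (red higher, blue lower), with large subunit genes above the horizontal line vertical lines between the groups, and names for genes named in the text. Animals 1, 2 and 4 of 12-month DBA/2J and animal 1 of Gpnmb+ are red for most genes of both subunits. Gpnmb+ animals 2 and 4 and 6-month animals 1, 2, 3 and 5 are blue for most. Rps2, Rps4l, Rpl7l1 and Rpl22l1 follow patterns of their own.

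Against Gpnmb+, moderate retinas (3 sums) had higher fitted levels of all 83 genes tested, and mild and severe retinas (2 sums each) gave medians closer to those of all genes. No test of the difference between these medians was made. The median log2 fold change was 0.25 for mild, 0.96 for moderate and 0.01 for severe, beside -0.11, -0.02 and -0.06 over the 15959 genes tested. The mild median rests on single sums: it was 0.02 without the 2 retinas that stood apart, -0.57 without the mild sum of animal 4, 0.72 without that of animal 5, and 0.42 and 0.07 without Gpnmb+ animals 1 and 2. The severe median was 0.17 without Gpnmb+ animal 1, -0.15 without Gpnmb+ animal 2, and -0.01 without the 2 retinas that stood apart. A positive value was found for 67 of 83 in mild beside 44.2% of all genes, 83 in moderate beside 47.6% and 42 in severe beside 46%. The large and small subunit medians were 0.23 and 0.30 for mild, 0.92 and 1.03 for moderate, and -0.07 and 0.04 for severe. The adjusted edgeR test gave 0 genes in each grade, with 865, 1350 and 683 genes at an unadjusted p under 0.05 and 513, 274 and 230 adjusted with DESeq2. At an unadjusted p under 0.05, 48 genes were higher in moderate retinas (25 large, 23 small) beside 4.75% of all genes, and 0 lower beside 3.71%. Mild retinas had 0 genes higher beside 2.67% and 0 lower beside 2.75%. Severe retinas had 0 genes higher beside 3.08% and 0 lower beside 1.2%. The median SE of a ribosomal protein gene was 0.49 for mild and 0.50 for severe, against 0.42 for moderate.

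In mild retinas the genes with the smallest p included Rpl24 (0.76 ± 0.54), Rpl26 (0.60), Rpl11 (0.52), Rpl18 (0.54), Rps4l (3.49) and Rps29 (0.69). Of 16 genes of opposite sign, Rps2 (-0.66), Rpl4 (-0.30) and Rpl5 (-0.28) were the largest, followed by Rpl13a, Rpl12 and Rpl10a between -0.17 and -0.14. In severe retinas the genes with the smallest p were, among others, Rpl8 (0.53), Rpl5 (-0.61), Rpl15 (0.64), Rpl32 (-0.62), Rps27l (-1.70) and Rps2 (-0.73). No gene of either list passed an unadjusted p of 0.05. Mild sums were apart from Gpnmb+ for 0 of the 83, beside 4.12% of all genes higher and 2.35% lower without overlap.

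In moderate retinas Rpl8 had 892, 480.3 and 446 CPM (animals 1, 2 and 5), against 277, 199, 200.2, 217 and 372 CPM in Gpnmb+ animals 1 to 5. All moderate sums were above all Gpnmb+ sums, and the log2 fold change was 1.26 ± 0.32 (p = 0.000749, adjusted p = 0.579 by edgeR, adjusted p = 0.0165 by DESeq2). Rps3, which lines the mRNA entry channel, had 943, 652 and 544 CPM in the moderate sums and 539.9, 248, 359, 292 and 455 CPM in Gpnmb+, at 0.91 ± 0.29, also without overlap. Rpl18 (1.46), Rpl9 (1.09) and Rpl19 (1.11) followed in the large subunit. In the small one Rps18 was at 1.28. Groups did not overlap for 22 genes (17 large, 5 small), all higher, beside 2.51% of all genes, and 0 were lower beside 1.13%. DESeq2 also called Rpl29 (adjusted p = 0.00421), which is named because of that call. The moderate sum of animal 1 is 1 of the 2 retinas that stood apart. Without it the median was 0.56 and 5 genes were higher at p under 0.05. The stalk gene Rplp0 was at 1.04 ± 0.35, Rpsa at 1.21 ± 0.39, Rps6 at 0.42 ± 0.28 and Rps2 at 0.34 ± 0.52 in moderate retinas against Gpnmb+.

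Moderate retinas were then set against mild ones within 12-month DBA/2J. The median was 0.70, 82 of 83 were positive beside 51.5% of all genes, and 4 genes were higher at p under 0.05, which is 4.82% of the 83 beside 2.46% of all genes, and 0 were lower beside 2.74%. These were Rpl4 (1.05 ± 0.40), which lines the peptide exit tunnel, Rpl12 (1.14 ± 0.49) at the stalk base, Rpl8 (0.87 ± 0.41) and Rps18 (1.31 ± 0.52), each with an adjusted p of 0.772 by edgeR. The adjusted test gave 0 genes (830 at an unadjusted p under 0.05, and 425 adjusted with DESeq2). Rpl4 had 1055, 712 and 952 CPM in the moderate sums and 549.6 and 325 CPM in the mild sums, without overlap. It is among 9 genes higher without overlap, beside 8.07% of all genes, and 0 were lower beside 8.62%. The summed level of the large subunit was 15093 CPM in the mild sum of animal 4 and 6589 CPM in that of animal 5. The sum of animal 4 holds the other retina that stood apart, and its remaining eye had a share of 1.95%, against 1.22% in the mild eye of animal 5. Without the 2 retinas that stood apart, the median of moderate against mild was 0.56 and 5 genes were higher. Without the mild sum of animal 4 the median of moderate against mild was 1.499 and 41 genes were higher, and without that of animal 5 they were 0.22 and 0. Severe against mild gave a median of -0.24, with 9 of 83 positive beside 49% of all genes. It had 0 genes higher beside 2.01% and 0 lower beside 0.777% at p under 0.05, and 0 of all genes adjusted (445 at an unadjusted p under 0.05, and 271 adjusted with DESeq2). The smallest p there belonged to Rpl32 (-0.91), Rpl4 (0.48), Rpl9 (-0.49), Rpl13 (-0.54), Rps27l (-1.62), Rps4l (-3.47), Rps15 (-0.51) and Rps7 (-0.51). Without the mild sum of animal 4 its median was 0.56, without that of animal 5 it was -0.73, and without the 2 retinas that stood apart it was 0.0015. In severe retinas Rps27l had 4.04 and 8.79 CPM against 31.8, 13.9, 25.2, 15.5 and 18.1 CPM in Gpnmb+, without overlap, at -1.70 ± 1.11 (adjusted p = 0.982 by edgeR). With Rpl5 it made 2 genes lower without overlap in severe retinas, beside 1.47% of all genes, and Rpl6l was the 1 higher, beside 5.68%. In severe against mild, 3 were higher without overlap (Rpl4, Rpl10a and Rpl6l) beside 16%, and 4 were lower (Rpl9, Rpl11, Rpl37a and Rps7) beside 10.8%.

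The eyes of single animals were compared as a description without a test. Animal 5 gives moderate against mild within an animal, and animal 1 gives moderate against severe, which was not fitted above. In DBA/2J animal 1 the moderate eye was higher than the severe eye for 81 of 82 genes counted in both, with a median log2 difference of 1.48, against -0.17 over all 8801 genes counted in both. In animal 5 the moderate eye was higher than the mild eye for 81 of 82 genes, with a median of 1.10, against -0.02 over all genes. In animal 4, however, both eyes were graded mild, and OS was higher than OD for 78 of 82 genes with a median of 1.29, against 0.18 over all genes. In animals 2 and 3, whose eyes had the same grade, the medians were 0.02 and 0.06. In the 4 Gpnmb+ animals with both eyes the median of OD minus OS was 0.12, 0.58, -0.21 and 0.13, against 0.44, 0.27, 0.02 and -0.02 over all genes counted in both eyes. The difference between eyes of 1 grade in animal 4 thus lay between those of animals 1 and 5, whose eyes differ in grade.

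**Figure D5:**
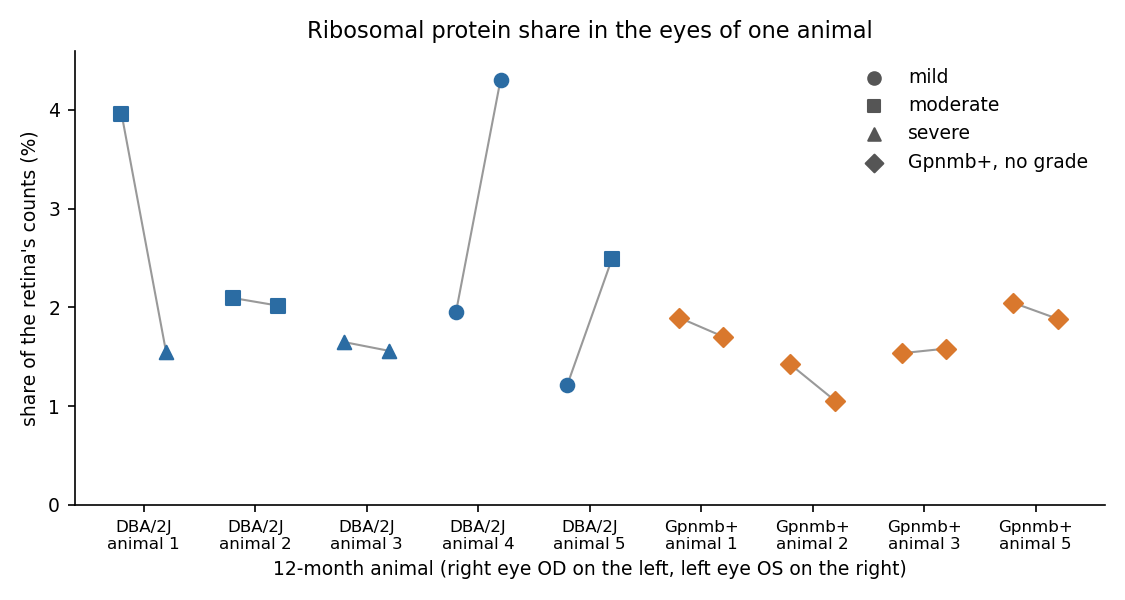
Share of counts from ribosomal protein genes (percent) in the right eye (OD) and left eye (OS) of each 12-month animal with both eyes, joined by a line. DBA/2J animals are blue with the grade as the marker and Gpnmb+ animals are orange. The eyes of DBA/2J animals 1, 4 and 5 lie far apart (3.96% and 1.55%, 1.95% and 4.30%, 1.22% and 2.49%), and the eyes of animal 4 share a grade.

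Rps2 and the paralogs were looked at one by one. Rps2 had 45.2, 137, 80.4, 74.4 and 156 CPM in 12-month DBA/2J, 69.3, 100.3, 122, 52.2 and 203 CPM in Gpnmb+ and 113, 92.7, 137, 137 and 76.0 CPM in 6-month DBA/2J. It was lowest in DBA/2J animal 1, where most ribosomal protein genes were high. Rpl22l1 had 91.2, 133, 91.9, 124 and 94.0 CPM in 12-month DBA/2J and ranged from 25.6 to 174 CPM in Gpnmb+ and from 18.6 to 135 CPM at 6 months. Rpl7l1 was not counted in Gpnmb+ animal 2 and reached 165 CPM in 6-month animal 2. Rpl36al was at 0.38 ± 0.38 against Gpnmb+ and 0.53 ± 0.38 against 6 months, and Rps27l at 0.15 ± 0.62 and 0.40 ± 0.62.

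The pseudogene Rps4l had 4.58, 31.5, 8.79, 97.9 and 4.88 CPM in 12-month DBA/2J and 0, 0, 7.01, 4.17 and 10.7 CPM in Gpnmb+. The groups overlapped, and its log2 fold change of 2.74 ± 1.29 (p = 0.0481, adjusted p = 0.952 by edgeR) rests mostly on DBA/2J animal 4. Its parent Rps4x was at 0.21 ± 0.22.

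Other genes of translation were taken from lists, and no test compared them with the ribosomal protein genes. The 4 ribosomal proteins that the naming rule leaves out had a median log2 fold change of 0.37 against Gpnmb+, 0.55 between 12 and 6 months and 0.83 in moderate retinas. At p under 0.05, 0, 1 and 2 of them were higher and 0 were lower. Rack1, a scaffold on the small subunit, was at 0.50 ± 0.20 between 12 and 6 months. Of 20 translation factors and companions, 0 passed that threshold against Gpnmb+ (median 0.09). Between 12 and 6 months 2 were higher (median 0.34): Pabpc1, the poly(A)-binding protein, at 0.73 ± 0.23, and Npm1, a nucleolar chaperone, at 0.87 ± 0.38. In moderate retinas 1 was higher (median 0.37), Pabpc1 at 0.70 ± 0.31.

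Of 29 ribosome assembly genes, 0 passed against Gpnmb+ (median 0.20) and 1 was higher between 12 and 6 months (median 0.25), Gnl3 at 1.48 ± 0.59. In moderate retinas 2 were higher (median 0.74), the nucleolar genes Nop56 at 1.00 ± 0.47 and Nop16 at 1.66 ± 0.77. Their sum was 3017 CPM in DBA/2J animal 5 OS, a moderate retina, and 878 to 1432 CPM in all others. Of 15 genes of the TOR pathway and of tract binding, 0 passed in those 3 comparisons, with medians of 0.07, -0.09 and 0.07. Of 78 mitochondrial ribosomal protein genes, 1 was higher against Gpnmb+ (Mrps23, 2.14 ± 0.99), 1 between 12 and 6 months (Mrpl18, 1.90 ± 0.50) and 2 in moderate retinas (Mrps33, 1.56 ± 0.65, and Mrpl52, 1.63 ± 0.75), with medians of 0.29, 0.40 and 0.73. None was lower at that threshold in these 3 comparisons. The summed CPM of these 78 genes was 3391.5 and 3934.3 in the 2 retinas that stood apart, and 35.8 to 2623 in all others. The share of all genes at p under 0.05 in the higher direction was 2.76%, 2.1% and 4.75%, as above.

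Other gene groups were measured in the same libraries. Of 15 mitochondrially encoded genes tested, 13 were higher at 12 than at 6 months at p under 0.05 (median 1.14), beside 2.1% of all genes. In 12-month DBA/2J against Gpnmb+ 0 passed (median -0.06), beside 2.76% higher and 2.45% lower. At 6 months 12 were lower than in Gpnmb+, beside 1.57%. None of these genes passed the adjusted test. Mitochondrial genes made up 2.98% and 3.34% of counts in the 2 retinas that stood apart and 1.43% to 2.34% in the other 12-month DBA/2J retinas. The mitochondrial share was 1.21% to 4.71% in Gpnmb+ and 0.64% to 1.49% at 6 months. The Gpnmb+ retinas animal 2 OD and animal 1 OS, at 4.71% and 3.27%, had ribosomal protein shares of 1.42% and 1.70%. In 12-month DBA/2J, the summed CPM of 10 microglia markers was lowest in the 2 retinas that stood apart, at 20412 and 20364. It ranged up to 41439 in that group and was 23917 in animal 5 OS. It ranged from 14877 to 37154 in Gpnmb+ and from 35005 to 40187 at 6 months. In a bulk sample, fewer cells of a type and less RNA per cell cannot be told apart.

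The 6 monocyte and recruited macrophage markers summed to 309 to 2336 CPM in 12-month DBA/2J, 15.3 to 739 in Gpnmb+ and 50.3 to 363 at 6 months. Lyz2, a lysozyme of many myeloid cells, made 2325 of the 2336 CPM in animal 1 OD. Of these markers Ly6c2, Plac8 and Chil3 were at 0 in every 12-month DBA/2J retina, and S100a4 had a count in animal 1 OD alone of that group, at 9.43 CPM. Ccr2 was at 1.20 CPM in animal 1 OD, 21.1 in animal 4 OS and 69.3 in animal 5 OS, its highest value, and the last of these had the next-highest ribosomal protein share (2.49%). The 6 border-associated macrophage markers summed to 0 to 255, 0 to 160 and 0 to 84.7 CPM in the same groups. The 13 rod markers summed to 280 to 5643, 231 to 19932 and 219 to 2448 CPM, with the highest DBA/2J value in animal 1 OD. In moderate against mild retinas, 13 of 13 rod markers were positive (median 2.68), and 5 were higher at p under 0.05, beside 2.46% of all genes. All 6 border-associated macrophage markers were positive there, and 3 of 10 microglia markers were lower at that threshold, beside 2.74%. Of the rod markers, 12 were positive in moderate against Gpnmb+ and between 12 and 6 months, and 2 in 12-month DBA/2J against Gpnmb+. None passed the adjusted test. The 5 neutrophil markers were at 0 in every retina, and the 6 lymphocyte markers in every 12-month DBA/2J retina. The part of these values in the ribosomal protein differences was not tested.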

How the data were processed

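Per the file headers, the authors estimated expected counts and TPM (transcript abundance scaled by length and library) for every gene, in 1 table per retina. Named in the submitters' processing notes, with no role, are DESeq2 1.30.1, R 4.0.3, Salmon 1.4.0 and the mm10 build, and the annotation release is not given in the sources used here. A series table of 24 FPKM columns was not used because its column names do not give the animals.

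Expected counts were rounded and summed per animal, or per animal and grade. Genes were filtered with filterByExpr (minimum count 10, minimum total 15), scaled by TMM and tested with the quasi-likelihood test of edgeR 4.0.16 in R 4.3.3 over all groups. P-values were adjusted by Benjamini-Hochberg over all 12977 genes (15959 for the grades). CPM values of whole animals and of the grade sums are TMM-scaled. Those given for single retinas, including the summed CPM of markers and gene lists, are scaled only to 1e+06 counts per library. Values of single retinas are therefore not directly comparable with those of animals. An SE is the size of the log2 fold change divided by the square root of F. Labels do not say how animals were housed or processed, so p-values measure the spread between these animals. Total counts of 977886 to 20081114 per retina set the precision, and no 2 libraries of a group were alike within sampling noise (91 pairs, smallest chi-square per degree of freedom 81.8).

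The members and the gene lists were chosen with earlier results of these data known. Named genes are a set of 12 (stalk genes, Rpsa, Rpl3, Rpl8, Rpl10, Rpl41, Rps2, Rps4x, Rps6 and Rps27a), the paralogs, the 4 genes of each subunit with the smallest p in a comparison, up to 6 genes of opposite sign, the 3 highest and 3 lowest by TPM, and genes past an adjusted threshold. Results of a few genes are not reported here. Alternatives were DESeq2 1.42.0, RLE scaling, no filter, a replicate block, limma 3.58.1 with a random animal effect, single retinas, subsets of retinas and leaving out each animal. The fits were tested on simulated data. Promoter sequences are from RefSeq (GRCm38.p6). Figures and sums used Python 3.11.15 with numpy 2.4.6, pandas 2.3.3 and scipy 1.17.1.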

Additional observations from a re-analysis of the deposited data

Results flagged for a closer look

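Of 72 groups of 4 to 10 values that were checked, 7 held a sample far from the others. Chance alone does this in about 1 in 20 groups of independent, normally distributed values. Many of these groups share animals, so the rate here is not known. The ratio of the large to the small subunit sum was 1.87 in Gpnmb+ animal 2 OS, the highest of the 9 retinas of that group. Rplp0 was highest in Gpnmb+ animal 5, at 399 CPM, and Rplp1 in Gpnmb+ animal 1, at 828 CPM. In 6-month DBA/2J, animal 5 was highest for Rpsa (254 CPM) and for Rps6 (347 CPM). In 12-month DBA/2J, Rpl36al was lowest in animal 3, at 49.97 CPM, and Rps4l was highest in animal 4, at 97.9 CPM. The shares of counts from ribosomal protein genes per retina were among the values checked. The 2 retinas that stood apart were not flagged for these shares.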

How the results depend on the processing

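The medians of the ribosomal protein genes were positive in 12-month DBA/2J against Gpnmb+ and against 6 months, and in moderate retinas against Gpnmb+, under every alternative run (0.17 to 0.62, 0.44 to 0.79 and 0.56 to 1.17). Medians over all genes moved too. In 12-month DBA/2J against Gpnmb+ with a replicate block, the median was 0.43 for ribosomal protein genes and 0.31 for all genes. With a random animal effect these were 0.31 and 0.59. The numbers of genes past a threshold were less stable, and the cause was not tested. With DESeq2, 222, 148, 175, 513, 274, 230, 425 and 271 genes had an adjusted p under 0.05 in 12-month DBA/2J against Gpnmb+, 12 against 6 months, 6 months against Gpnmb+, mild, moderate and severe against Gpnmb+, moderate against mild and severe against mild, where edgeR gave 0. Among ribosomal protein genes at an unadjusted p under 0.05, DESeq2 gave 8 lower at 6 months against Gpnmb+, 1 higher in mild, 1 lower in severe and 12 higher in moderate against mild, and RLE scaling gave 6 and 8 for the first and last. RLE scaling placed the severe median at -0.09. Without the filter, 2, 31, 33, 10, 15 and 5 genes passed the adjusted test in 12 against 6 months, mild, moderate, severe, moderate against mild and severe against mild, and 1 ribosomal protein gene was lower at 6 months, 1 higher in mild and 2 in moderate against mild. Without retinas under 20% of the median total, 4, 26 and 23 were higher in 12-month DBA/2J against Gpnmb+, 12 against 6 months and moderate against mild, 0 were lower at 6 months, and Rpl5 turned to 0.078 against Gpnmb+. Without retinas under 10000 genes those 3 numbers were 25, 66 and 9. That setting drops Gpnmb+ animals 1 and 2 and the right eye of Gpnmb+ animal 3, so it also changes which animals are compared. Without the 2 retinas that stood apart, chosen after seeing the data, they were 2 and 14 in the first pair, 5 in moderate against Gpnmb+, and 5 genes passed the adjusted test in mild. With single retinas as replicates, 27 were higher at 12 than at 6 months and 0 lower at 6 months. With a random animal effect, 8, 5 and 40 genes passed the adjusted test in the 3 animal comparisons, 0 and 6 ribosomal protein genes were higher in the first 2, 1 was higher and 0 lower in the third, and the medians of all genes were 0.59, -0.43 and 1.09. With the deeper retina of each animal, 3 and 12 were higher, 0 lower at 6 months, and Rps2 turned to 0.28 and 0.11. With only the groups compared, 5 and 65 were higher. On TPM the ratios of the subunits were 1.07, 1.16 and 1.14.

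Leaving out 1 animal or sum gave 4 to 38 genes higher in 12-month DBA/2J against Gpnmb+, 24 to 53 in 12 against 6 months, 1 to 10 lower at 6 months, 0 to 4 higher and 0 to 5 lower in mild, 5 to 65 higher in moderate, 0 to 41 higher in moderate against mild (7 without the moderate sum of animal 5), and 0 to 2 higher and 0 to 2 lower in severe against mild. The medians ranged from -0.34 to -0.05 at 6 months against Gpnmb+, -0.57 to 0.72 in mild, -0.15 to 0.17 in severe, 0.22 to 1.499 in moderate against mild and -0.73 to 0.56 in severe against mild. Over all genes, the adjusted test then gave 0 to 1 in 12-month DBA/2J against Gpnmb+, 0 to 2 in mild, 0 to 2 in moderate and 0 to 3 in moderate against mild. Rps2 ranged from -0.36 to 0.20 against Gpnmb+ (0.033 without DBA/2J animal 1) and from -0.38 to 0.0085 against 6 months, and Rpl7l1 from -0.48 to 0.060 against 6 months. Animal numbers did not pair the samples (15 pairs, correlations of -0.03 to 0.065, 0 over 0.1). With the animal number as a replicate block, 4 genes passed the adjusted test in moderate and 1 in severe retinas, and 11 and 33 ribosomal protein genes were higher in 12-month DBA/2J against Gpnmb+ and against 6 months.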

Other observations

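Myc, a transcription factor known to drive ribosome production, stood at 14.2 CPM ± 17.7 (SD, n = 2) in the mild sums, 90.2 ± 59.1 in the moderate sums (n = 3) and 80.8 ± 1.68 in the severe sums (n = 2), against 93.7 ± 23.7 in Gpnmb+ (n = 5). Its log2 fold change was -2.73 ± 0.84 in mild retinas against Gpnmb+ (edgeR, p = 0.00396, adjusted p = 0.795) and 2.67 ± 0.86 in moderate against mild retinas (adjusted p = 0.772). In the comparison of all animals it was at -0.49 ± 0.34 against Gpnmb+, where most ribosomal protein genes had a positive value.

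Mrpl18, a protein of the mitochondrial ribosome, had 14.5 CPM ± 5.87 (n = 5) at 6 months, against 54.3 ± 22.1 in 12-month DBA/2J and 53.8 ± 22.3 in Gpnmb+. Neither difference passed the adjusted edgeR test (adjusted p = 0.556 and 0.782). These genes were named because of their values.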
